A study of Mus musculus with 6 samples.

Results

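Genes encoding the subunits of the proteasome were examined on 6 Affymetrix arrays of mouse heart RNA. The genes were taken by name: a probe set was included where its single gene symbol began with Psma, Psmb, Psmc, Psmd or Psme followed by a digit. This gave 51 probe sets for 45 genes, out of 35556 probe sets on the array, of which 21789 carry 1 symbol. The study asked how a long-standing loss of cholinergic tone alters cardiac gene expression. VAChT, encoded by Slc18a3, fills synaptic vesicles with acetylcholine, and VAChT KDHOM mice are homozygous for a systemic knockdown of it, so that the reduction is not limited to neurons of the heart. There were 3 WT and 3 VAChT KDHOM arrays, and the RNA on each was pooled from 2 samples, so the spread between arrays is that between pools. All mice were untreated males aged 3 months. The labels name whole heart and the strain C57BL/6, and the methods name ventricles and a mixed C57BL/6 background with limited backcrossing.

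The proteasome degrades proteins that have been tagged with ubiquitin. Its core particle is a barrel of outer rings of alpha subunits (Psma) and inner rings of beta subunits (Psmb), and proteolysis takes place inside, at the beta subunits Psmb5, Psmb6 and Psmb7. Under interferon signalling these may be replaced by Psmb8, Psmb9 and Psmb10, which gives the immunoproteasome and favours peptides for presentation on MHC class I. Access to the core is controlled by a regulatory particle made of ATPases (Psmc) and non-ATPase subunits (Psmd), or by ubiquitin-independent activators (Psme). In the heart the system turns over sarcomeric and damaged proteins.

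Promoters of 3 genes are shown because they stand for the constitutive catalytic subunits (Psmb5), the immunoproteasome (Psmb8) and the activators (Psme1). Each is 300 bases, 250 before and 50 after the RefSeq gene start, from the assembly GRCm38.p6. They lie at chr14:54617946-54618245 on the minus strand (Psmb5), chr17:34197945-34198244 on the plus strand (Psmb8) and chr14:55578244-55578543 on the plus strand (Psme1). Capitals mark the letters TGACNNNGC, the core of the antioxidant response element, in Psmb5 and the reverse strand of the interferon element, GAAA repeated with 2 free bases between the copies, in Psme1.
Psmb5: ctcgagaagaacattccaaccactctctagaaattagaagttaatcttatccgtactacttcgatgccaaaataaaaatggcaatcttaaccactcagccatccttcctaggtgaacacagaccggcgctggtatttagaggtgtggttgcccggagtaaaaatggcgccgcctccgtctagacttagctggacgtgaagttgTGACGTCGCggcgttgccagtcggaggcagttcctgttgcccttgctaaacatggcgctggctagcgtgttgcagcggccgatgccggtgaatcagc
Psmb8: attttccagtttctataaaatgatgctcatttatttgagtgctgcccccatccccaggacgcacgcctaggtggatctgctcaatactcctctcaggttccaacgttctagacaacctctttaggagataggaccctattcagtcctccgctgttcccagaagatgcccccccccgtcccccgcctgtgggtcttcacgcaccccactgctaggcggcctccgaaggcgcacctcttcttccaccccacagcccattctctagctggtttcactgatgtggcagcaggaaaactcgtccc
Psme1: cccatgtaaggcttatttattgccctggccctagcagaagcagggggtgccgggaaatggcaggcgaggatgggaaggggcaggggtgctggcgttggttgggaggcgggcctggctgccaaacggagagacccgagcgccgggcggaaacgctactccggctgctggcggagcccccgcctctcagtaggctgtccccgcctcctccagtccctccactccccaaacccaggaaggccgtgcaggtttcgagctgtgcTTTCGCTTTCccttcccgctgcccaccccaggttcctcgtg
A promoter was available for 38 of the 45 genes, and both strands were searched. TGACNNNGC was found in 6 of the 38 (15.8%; Psmb5, Psmb6, Psmc6, Psmd12, Psmd9 and Psme4), against 14.0% of all genes with such a promoter. CCAAT was found in 16 (42.1%), against 41.1%. The interferon element was found in 4 (10.5%; Psmb3, Psmd4, Psmd9 and Psme1), against 3.99%, and Psmb8, Psmb9 and Psmb10 were not among them. Matches of different motifs may overlap at their ends, and a match describes the sequence only.

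Signals are log2 values, and a difference is the mean of the VAChT KDHOM arrays minus that of the WT arrays. Slc18a3 read 7.31, 7.42 and 7.11 on WT arrays 1 to 3 and 7.24, 6.77 and 7.58 on VAChT KDHOM arrays 1 to 3, so the groups overlapped for the gene that the knockdown targets. Ogdhl, an oxoglutarate dehydrogenase-like gene that lies close to Slc18a3 on chromosome 14, read 9.60, 7.21 and 10.33 on the WT arrays and 7.06, 10.17 and 7.09 on the VAChT KDHOM arrays. For this gene both arrays numbered 2 resembled the opposite group. As labelled the difference was -0.94 (unadjusted p = 0.391 in limma). The paper lists Ogdhl as its most strongly decreased gene, by a far larger factor. That factor is reached from the values above with both arrays numbered 2 exchanged between the groups, and not as labelled. The labels of these arrays are thus in doubt, and the groups used here may differ from those the paper compared. The labels were kept for every difference, p and overlap given here, and an exchange was not tested for the proteasome genes. Some results are therefore also given without those arrays. Ventricular cardiomyocyte markers averaged 13.90 to 13.93 on the WT arrays, 13.23 on VAChT KDHOM array 1 and 13.98 to 13.99 on the others, and all 8 were far above background. Atrial markers averaged 10.98 on VAChT KDHOM array 3 and 10.24 to 10.52 on the other arrays. Of the leukocyte markers 13 of 14 were measured, with array means of 6.62 to 6.72 for WT and 6.47 to 6.77 for VAChT KDHOM. Only 7 of these markers had a mean above background. Whether these features play a part in the proteasome values was not tested. In bulk tissue, fewer cells of a type and less RNA per cell cannot be told apart.

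The proteasome genes as a whole differed little between the genotypes. Their median difference was 0.05, with the middle of the distribution between -0.02 and 0.10 and the extremes at -0.26 and 0.23. The median was -0.02 for all probe sets and 0.02 for those above background, as nearly all members were. Of the 51 probe sets 32 (62.7%) had a difference above 0, against 45.8% of all probe sets and 54.5% of those above background. With each array centred on its median, the median of all probe sets became 0.05 and that of the members 0.12, 48 of the 51 members (94%) were above 0 against 61% of all probe sets, and only Psma8, Psmb4 and Psmb11 remained below 0, so the signs of the smaller negative differences given here depend on the scaling. No member passed an adjusted p of 0.05 (limma, Benjamini-Hochberg over all probe sets, lowest adjusted p = 0.409), which 0.00281% of all probe sets did. At an unadjusted p of 0.05, 1 member was higher, Psmd5 (1.96%, against 3.93% of all probe sets), and 1 was lower, Psmb11 (1.96%, against 7.81%). None reached both that p and a change of 1.3-fold, which 3.79% of all probe sets did. The groups did not overlap, with every VAChT KDHOM array above every WT array, for 6 members (11.8%, against 6.25%): Psma7, Psmb1, Psmb8, Psmc2, Psmd4 and Psmd5. The opposite held for 1 member, Psmb11 (1.96%, against 12.9%). Each of these separations depends on the labels of the arrays numbered 2, since the groups would overlap if those arrays were exchanged. Of the 20448 probe sets above background, 1542 were higher and 2246 lower without overlap.

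On the deposited scale and labels, most of these differences had narrow intervals. The intervals were counted on that scale only, and centring the arrays shifts the differences upwards. The 95% interval lay within 1.3-fold (0.379 on the log2 scale) in either direction for 45 of 51 members (88.2%), against 52.9% of all probe sets and 60.2% of those above background. The exceptions were Psma2, Psma8, Psmb8, Psmb11, Psmd5 and 1 of the probe sets of Psmc1. The median SD within a group was 0.0948 for members and 0.126 for all probe sets. Background was set at 6.5, the 95th percentile of 1035 olfactory receptor probe sets, and 49 of the 51 members had a mean above it, all but Psmb11 and Psma8.

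**Figure D1:**
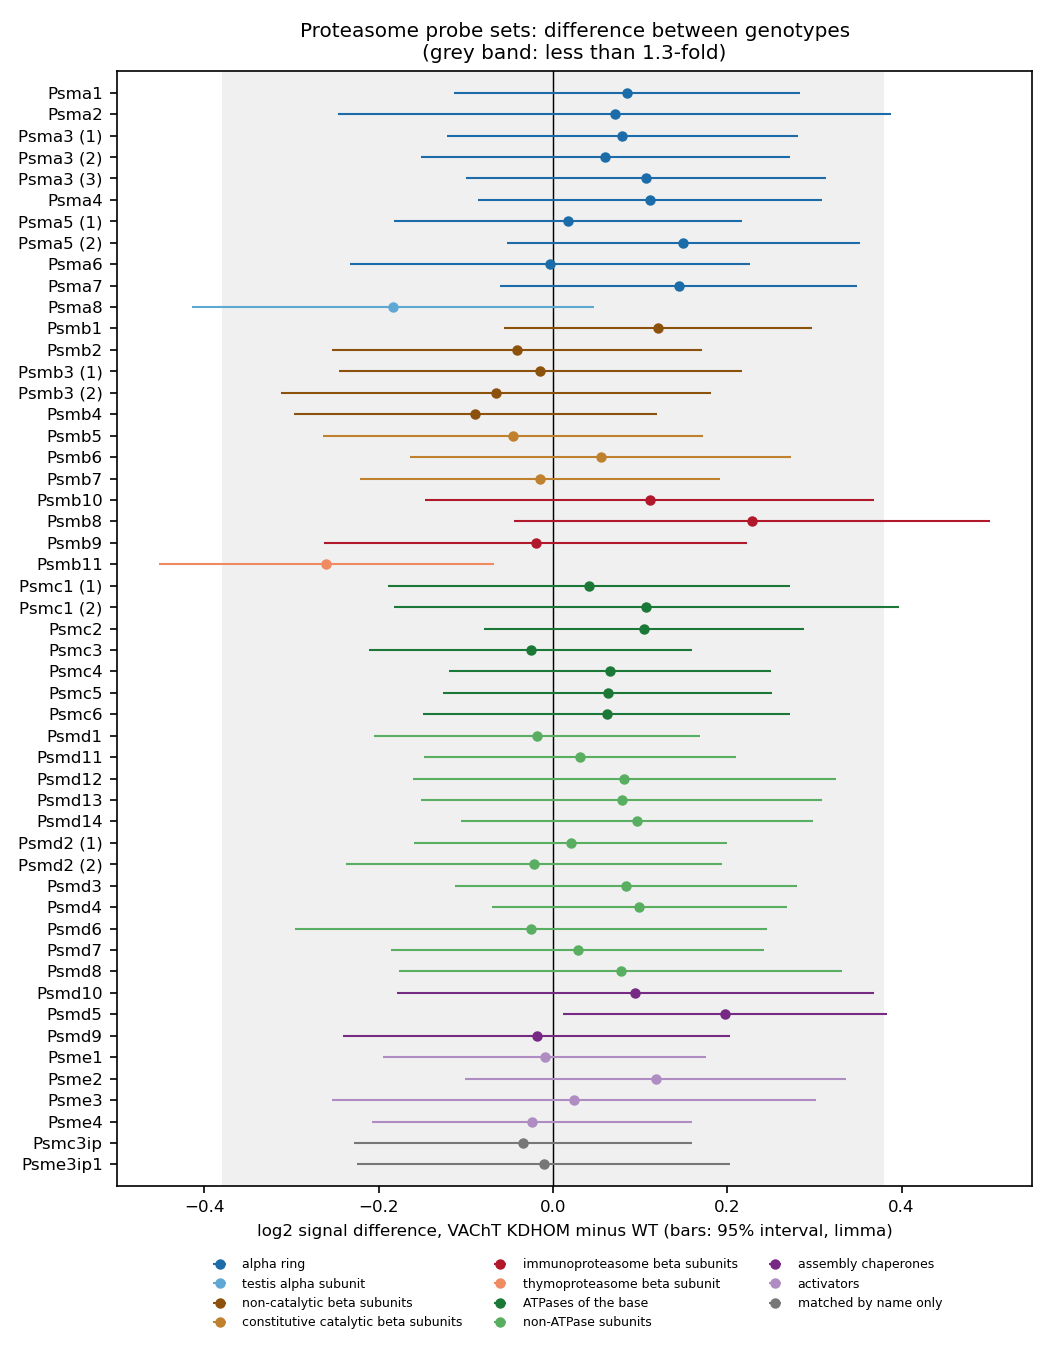
Difference in log2 signal, VAChT KDHOM minus WT, of the 51 proteasome probe sets (points) with 95% intervals from limma (bars), coloured by role; numbers in brackets separate probe sets of the same gene. The grey band marks less than 1.3-fold, and 45 of the 51 intervals lie within it; the intervals of Psmd5 and Psmb11 do not cross 0.

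The alpha ring, which gates entry to the core, had a median difference of 0.08 over 10 probe sets of 7 genes, 9 of them above 0, and none passed an unadjusted p of 0.05. Psma7 read 9.02, 9.05 and 9.04 on the WT arrays and 9.06, 9.18 and 9.31 on the VAChT KDHOM arrays. The groups did not overlap, although VAChT KDHOM array 1 lay just above the WT arrays, and the difference was 0.14 (standard error 0.09, adjusted p = 0.515 in limma), or 0.08 without VAChT KDHOM array 3. One probe set of Psma5 read 8.22, 8.35 and 8.24 in WT and 8.52, 8.32 and 8.42 in VAChT KDHOM, a difference of 0.15 (standard error 0.09, adjusted p = 0.499), while the brighter probe set of the same gene differed by 0.02. Without VAChT KDHOM array 1 the former difference was 0.10, and without both arrays numbered 2 it was 0.24. The 3 probe sets of Psma3 differed by 0.06 to 0.11, Psma4 by 0.11 and Psma1 by 0.08. Psma2 spread widely within both groups, at 9.54, 9.82 and 9.46 in WT and 9.69, 9.47 and 9.87 in VAChT KDHOM, and Psma6 had the 1 difference below 0, at -0.00.

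Among the beta subunits without catalytic activity the median difference was -0.04 over 5 probe sets, 4 of them below 0. Psmb1 was the exception. It read 10.08, 10.05 and 10.14 on the WT arrays and 10.17, 10.20 and 10.27 on the VAChT KDHOM arrays, with no overlap and a difference of 0.12 (standard error 0.08, adjusted p = 0.525). Psmb4 read 11.91, 12.00 and 11.81 in WT and 11.78, 11.76 and 11.93 in VAChT KDHOM, a difference of -0.09 (standard error 0.09, adjusted p = 0.668), with -0.04 without WT array 2, -0.14 without VAChT KDHOM array 3 and -0.01 without both arrays numbered 2. The probe sets of Psmb3 differed by -0.07 and -0.01, and the former read 12.47, 12.37 and 12.32 in WT and 12.16, 12.31 and 12.50 in VAChT KDHOM, so that the mutant arrays held both the lowest and the highest value. Psmb2 differed by -0.04.

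The constitutive catalytic subunits had differences close to 0, with overlapping groups. Psmb5, which carries the chymotrypsin-like activity, read 12.01, 11.92 and 12.01 in WT and 11.78, 11.98 and 12.04 in VAChT KDHOM. Its difference was -0.05 (standard error 0.09, 95% interval -0.26 to 0.17). Psmb6, the caspase-like subunit, read 10.52, 10.38 and 10.48 in WT and 10.38, 10.51 and 10.64 in VAChT KDHOM, with a difference of 0.05 (interval -0.16 to 0.27). Psmb7, the trypsin-like subunit, read 10.87, 10.97 and 10.94 in WT and 10.78, 10.96 and 10.99 in VAChT KDHOM, with a difference of -0.02 (interval -0.22 to 0.19). VAChT KDHOM array 1 was the lowest of its group for all 3 genes, and it was also the array with low cardiomyocyte markers.

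The 3 immunoproteasome subunits differed in direction, and none passed the test. Psmb8 had the highest difference of all members. It read 7.40, 7.32 and 7.28 on the WT arrays and 7.40, 7.48 and 7.80 on the VAChT KDHOM arrays, and its difference was 0.23 (standard error 0.12, 95% interval -0.04 to 0.50, adjusted p = 0.465). The groups did not overlap, but VAChT KDHOM array 1 exceeded WT array 1 by less than 0.01 and the highest value was that of VAChT KDHOM array 3. Psmb8 passed an unadjusted p of 0.05 when VAChT KDHOM array 1 was left out (difference 0.31, unadjusted p = 0.0442), and its difference was 0.11 without VAChT KDHOM array 3. Psmb10 read 9.40, 9.43 and 9.45 in WT and 9.32, 9.57 and 9.72 in VAChT KDHOM, a difference of 0.11 (standard error 0.11, adjusted p = 0.668). The WT arrays lay close together here and within the range of the mutant arrays, and the difference was 0.02 without VAChT KDHOM array 3 and 0.22 without VAChT KDHOM array 1. Psmb9 read 8.71, 8.43 and 8.49 in WT and 8.40, 8.57 and 8.60 in VAChT KDHOM, a difference of -0.02 (standard error 0.10, adjusted p = 0.945), although Psmb9 lies beside Psmb8 and Tap1 on chromosome 17.

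Each inducible subunit was then set against the constitutive subunit whose place it takes, as the log2 ratio within an array. Probe sets differ in affinity, so only shifts of the ratio from its WT mean are given. The ratio of Psmb8 to Psmb5 lay at 0.03, 0.04 and -0.08 on the WT arrays and at 0.27, 0.15 and 0.41 on the VAChT KDHOM arrays. Every mutant array exceeded every WT array, by 0.27 on average (exact permutation test over arrays, two-sided, p = 0.1, adjusted p = 0.15 over 3 ratios). With 3 arrays against 3 this test cannot give a p below 0.1. The full separation depends on the labels of the arrays numbered 2, and without both of them the shift was 0.36. The ratio of Psmb10 to Psmb7 lay at 0.03, -0.04 and 0.01 in WT and at 0.05, 0.11 and 0.23 in VAChT KDHOM, a mean shift of 0.13 (exact permutation p = 0.1, adjusted p = 0.15) that was 0.08 without VAChT KDHOM array 3. The ratio of Psmb9 to Psmb6 overlapped between the groups and shifted by -0.07 (exact permutation p = 0.4, adjusted p = 0.4). The shift for Psmb8 came mainly from a higher Psmb8 on VAChT KDHOM arrays 2 and 3 and mainly from a lower Psmb5 on VAChT KDHOM array 1.

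**Figure D2:**
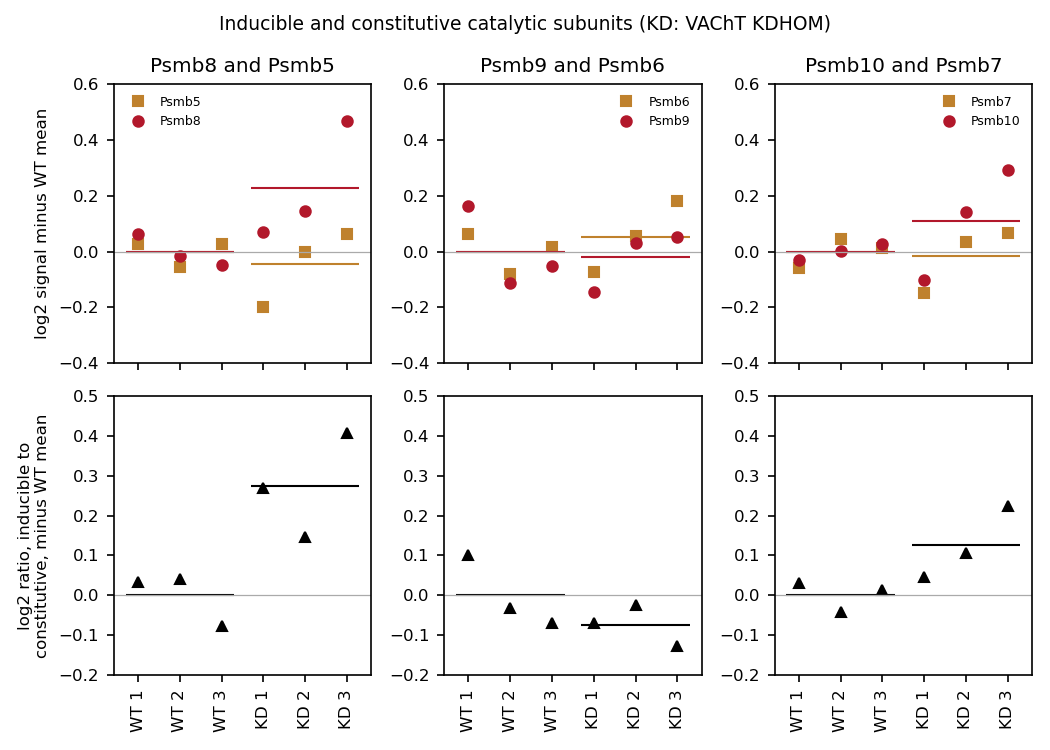
Top: log2 signal of the inducible (circles) and constitutive (squares) catalytic subunits on each array, minus the WT mean of the probe set; bottom: the log2 ratio of inducible to constitutive subunit within each array, minus its WT mean. Horizontal lines are group means of 3 arrays; the ratio of Psmb8 to Psmb5 is 0.15 to 0.41 on the VAChT KDHOM arrays and -0.08 to 0.04 on the WT arrays.

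Both members restricted to other tissues were at the level of background. Psmb11, the catalytic subunit of the thymus proteasome, read 6.57, 6.56 and 6.52 in WT and 6.39, 6.29 and 6.19 in VAChT KDHOM. Its groups did not overlap and its difference was -0.26 (standard error 0.08, unadjusted p = 0.0146 and adjusted p = 0.409 in limma). Psma8, an alpha subunit of the testis, read 5.68, 5.80 and 5.69 in WT and 5.53, 5.39 and 5.69 in VAChT KDHOM, a difference of -0.18 (standard error 0.10, adjusted p = 0.479). Olfactory receptor probe sets, which serve as background in heart, had a median difference of -0.11 in the same direction, and 110 of 1035 were lower at an unadjusted p of 0.05 while 3 were higher. Psmb11 did not pass that p when both arrays numbered 2 were left out (difference -0.25, unadjusted p = 0.0994), and Psma8 passed it without VAChT KDHOM array 3 (difference -0.26, unadjusted p = 0.0303).

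The ATPases of the regulatory particle, which unfold the substrate, had a median difference of 0.06 over 7 probe sets of 6 genes, 6 of them above 0 and none past an unadjusted p of 0.05. Psmc2 had groups that did not overlap, at 9.33, 9.43 and 9.40 in WT and 9.47, 9.44 and 9.57 in VAChT KDHOM, with a difference of 0.10 (standard error 0.08, adjusted p = 0.578). The others ranged from -0.03 (Psmc3) to 0.11 (a probe set of Psmc1), with Psmc4, Psmc5 and Psmc6 at 0.07, 0.06 and 0.06. WT array 1 was the lowest of the 6 arrays for 5 of the 7 probe sets.

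The non-ATPase subunits comprise the lid, which removes ubiquitin, and the scaffold and ubiquitin receptors of the base. They had a median difference of 0.05 over 12 probe sets of 11 genes, 9 of them above 0, within a range of -0.03 to 0.10, and every 95% interval lay within 1.3-fold. Psmd4, a ubiquitin receptor, was the 1 member of this class without overlap, at 9.33, 9.35 and 9.37 in WT and 9.41, 9.44 and 9.50 in VAChT KDHOM, a difference of 0.10 (standard error 0.07, adjusted p = 0.570). Psmd14, the deubiquitinase of the lid, differed by 0.10 (standard error 0.09), and the scaffold subunits Psmd1 and Psmd2 by -0.02 and by 0.02 and -0.02 in the probe sets of Psmd2. Psmd6 spread most among these in VAChT KDHOM, at 10.33, 10.05 and 10.40, as did Psmd8 at 10.08, 10.45 and 10.32, with the second array lowest for the former and highest for the latter.

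Of the assembly chaperones that carry Psmd names, Psmd5 was higher in VAChT KDHOM at an unadjusted p of 0.05. It read 8.54, 8.50 and 8.50 in WT and 8.68, 8.65 and 8.81 in VAChT KDHOM, so every mutant array lay above every WT array by at least 0.11. The difference was 0.20, or 1.15-fold (standard error 0.08, unadjusted p = 0.0407 and adjusted p = 0.415 in limma), and the p rose above 0.05 when any 1 of the 6 arrays was left out (0.0510 to 0.119). Without both arrays numbered 2 the difference was 0.22 (unadjusted p = 0.120 in limma). Psmd10, also known as gankyrin, differed by 0.09 (standard error 0.12) with VAChT KDHOM array 3 highest at 9.57. Psmd9 differed by -0.02 (standard error 0.10).

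The activators were centred on 0, with a median difference of 0.01 over 4 genes. Psme1, an interferon-inducible activator subunit, read 10.77, 10.67 and 10.70 in WT and 10.62, 10.75 and 10.73 in VAChT KDHOM, a difference of -0.01 (95% interval -0.19 to 0.18). Its partner Psme2, close to it on chromosome 14, read 9.99, 10.08 and 9.90 in WT and 10.02, 10.07 and 10.23 in VAChT KDHOM, a difference of 0.12 (95% interval -0.10 to 0.34) that was 0.05 without VAChT KDHOM array 3, 0.07 without WT array 3 and 0.18 without both arrays numbered 2. A further probe set, listed under both Psme2 and Psme2b and therefore not counted, differed by 0.16 (standard error 0.11). The nuclear activators Psme3 and Psme4 differed by 0.02 and -0.02. Psmc3ip, a meiotic recombination factor, and Psme3ip1, a partner of Psme3, share only the name and differed by -0.03 and -0.01.

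**Figure D3:**
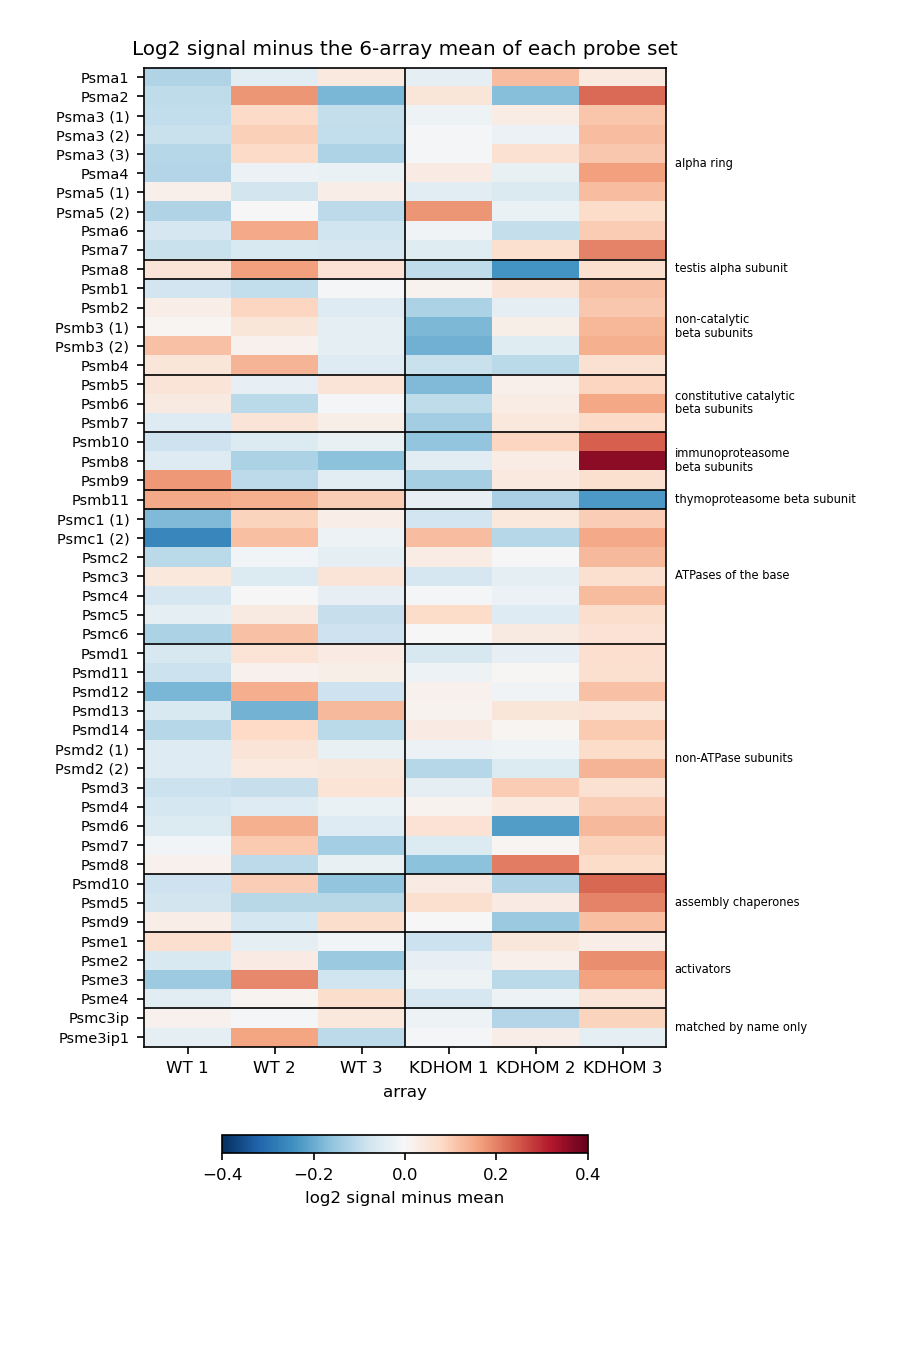
Log2 signal of each proteasome probe set on each array minus its mean over the 6 arrays, in rows grouped by role, red for above and blue for below the mean. VAChT KDHOM array 3 is the highest of the 6 arrays in 32 of the 51 rows, and Psmb11 is among the rows where it is lowest within its group.

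Across arrays, the third VAChT KDHOM array stood apart for these genes. VAChT KDHOM array 3 had the highest signal of the 6 arrays for 32 of 51 members (62.7%), against 25.4% of all probe sets and 33.0% of those above background. WT array 1 was lowest for 16 (31.4%, against 24.7% of all probe sets and 32.9% of those above background). VAChT KDHOM array 1 was lowest for 13 (25.5%, against 19.3% and 20.9%). With each probe set centred on its mean, members averaged -0.05, 0.02 and -0.03 on WT arrays 1 to 3 and -0.03, -0.02 and 0.11 on VAChT KDHOM arrays 1 to 3. Of the mutant arrays, only the third lay above all WT arrays. Without VAChT KDHOM array 3 the median difference of the members was 0.00 and 27 of 51 were above 0, and without both arrays numbered 2 the median was 0.09 with 38 above 0, no member being called at an unadjusted p of 0.05 in either direction.

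The order of the classes varied from array to array. On WT array 1 the alpha ring averaged -0.09 and the ATPases -0.10, while the constitutive beta subunits averaged 0.02. On VAChT KDHOM array 1 the alpha ring and the ATPases averaged 0.01 and 0.01, while the constitutive beta subunits averaged -0.12 and the immunoproteasome subunits -0.11. That array was the lowest of the mutant arrays for 7 of 8 constitutive beta probe sets and for 3 of 3 immunoproteasome subunits, but for 4 of 10 alpha probe sets and 3 of 7 ATPase probe sets. On VAChT KDHOM array 3 every class of 3 or more probe sets averaged above its 6-array mean, from 0.09 for the non-ATPase subunits to 0.22 for the immunoproteasome.

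**Figure D4:**
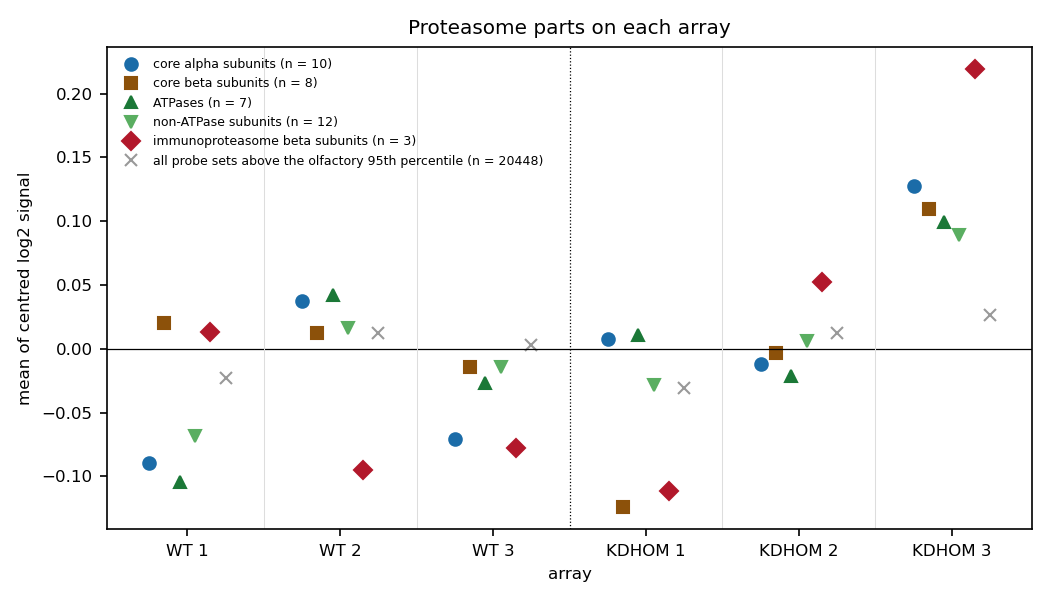
Mean log2 signal of each proteasome class on each array, after centring every probe set on its mean over the 6 arrays (n is the number of probe sets; crosses show all probe sets above background). On VAChT KDHOM array 3 the classes lie between 0.09 and 0.22, and on VAChT KDHOM array 1 the beta subunits lie at -0.12 and the alpha subunits at 0.01.

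Probe sets of similar signal over the whole array differed in the same direction. Among members with a mean signal of 8 to 10, the arrays of VAChT KDHOM averaged 0.08 above those of WT, and among all 7807 probe sets of that signal 0.05. Between 10 and 11 the values were 0.06 for the members and 0.04 for all 1857 probe sets. On VAChT KDHOM array 3 the members of these ranges averaged 0.12 and 0.11, and all probe sets 0.08 and 0.07. Above a signal of 11, VAChT KDHOM array 1 averaged -0.10 for 10 members and -0.15 for all 1562 probe sets. The part of signal-dependent differences between arrays in the proteasome values was not tested further.

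Other genes of the pathway were taken from 4 lists. Of 21 genes for proteasome assembly and regulation 17 were measured by a probe set of their own. Their median difference was 0.10 with 15 of 17 (88.2%) above 0, against 54.5% of all probe sets above background. Their median signal was 9.28, and all probe sets of signal 8 to 10 averaged 0.05 higher in VAChT KDHOM. The 17 genes averaged 9.26, 9.38 and 9.34 on WT arrays 1 to 3. On VAChT KDHOM arrays 1 to 3 they averaged 9.39, 9.39 and 9.48. At an unadjusted p of 0.05, 1 was called higher and none lower, beside 3.93% and 7.81% of all probe sets. That gene was Uchl5, a deubiquitinase of the regulatory particle, which read 7.96, 8.20 and 8.13 in WT and 8.35, 8.34 and 8.48 in VAChT KDHOM, a difference of 0.29 (standard error 0.09, unadjusted p = 0.0165 and adjusted p = 0.409 in limma). Sem1, a small lid subunit, differed by 0.18 (standard error 0.09) and the chaperone Psmg4 by 0.17 (standard error 0.09), neither past that p with all arrays and both past it without VAChT KDHOM array 1 (0.25 and 0.24, unadjusted p = 0.0401 and 0.0424), while without VAChT KDHOM array 3 they differed by 0.12 and 0.10 (unadjusted p = 0.257 and 0.287). Uchl5 itself missed it without VAChT KDHOM array 3 (difference 0.24, unadjusted p = 0.0538). Nfe2l1, a transcription factor known to drive proteasome genes when the enzyme is inhibited, differed by -0.07 (standard error 0.08).

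Uba6, an enzyme that activates ubiquitin, was the 1 gene measured of 6 listed for ubiquitin supply. It read 7.63, 8.09 and 8.18 in WT and 8.34, 8.35 and 8.38 in VAChT KDHOM, with a difference of 0.39 (standard error 0.14, unadjusted p = 0.0277 and adjusted p = 0.409 in limma). WT array 1 lay well below the other WT arrays, and without it the difference was 0.22 (unadjusted p = 0.0298). The unadjusted p was 0.0572 to 0.0665 without VAChT KDHOM array 1, 2 or 3. The muscle ubiquitin ligases, all 7 of which were measured, had a median difference of 0.03, and none was called. Among them the atrogenes Fbxo32 and Trim63, which rise in wasting muscle, differed by 0.04 (standard error 0.09) and 0.00 (standard error 0.08), Mdm2 by 0.10, Trim55 by 0.12 and Trim54 by -0.05.

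Partners of the immunoproteasome in antigen presentation were measured for 8 of 11 genes, with a median difference of 0.07. At an unadjusted p of 0.05, 1 was called lower and none higher, beside 7.81% and 3.93% of all probe sets. Nlrc5, the transactivator of MHC class I genes, read 10.74, 10.50 and 10.41 in WT and 10.23, 10.24 and 9.94 in VAChT KDHOM, without overlap, and its difference was -0.41 (standard error 0.12, unadjusted p = 0.0122 and adjusted p = 0.409 in limma). The interferon regulator Irf1 differed by 0.16 (standard error 0.13), the peptide trimming enzyme Erap1 by 0.13 (standard error 0.08) and the peptide transporter subunit Tap1, the neighbour of Psmb8 and Psmb9, by 0.08 (standard error 0.11). The difference of Irf1 was 0.30 (unadjusted p = 0.0242) without VAChT KDHOM array 1, 0.07 without VAChT KDHOM array 3, 0.10 without WT array 2 and 0.05 without both arrays numbered 2. Of the 13 leukocyte markers measured 7 were above 0, with a median difference of 0.02. At an unadjusted p of 0.05 Cd3e and Cd8a were lower (-0.22 and -0.40) and none was higher, beside 7.81% and 3.93% of all probe sets. The other T cell genes Cd3g and Cd4 differed by -0.00 and 0.02, but both had a mean below background. No member of these lists passed an adjusted p of 0.05.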

How the data were processed

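Heart RNA of WT and VAChT KDHOM mice was hybridised to 6 arrays, grouped by the genotype in their labels. Scanning used Command Console 1.1, and the authors obtained 1 value per gene-level probe set by RMA, run in Partek Genomics Suite 6.5. The deposited values are normalized log2 signals, with genome build and annotation not given in the sources used here. Symbols came from the platform annotation supplied with the values, in which 1621 probe sets carry several symbols and 12146 are unlisted.

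All 35556 probe sets were fitted in R 4.3.3 with limma 3.58.1 (lmFit, then eBayes), without covariates or a filter, with Benjamini-Hochberg adjustment over all of them. The methods name an ANOVA, which was run as an alternative. The procedure was tested on simulated data. Members, roles and lists were chosen with earlier results of these data known. Named with every array's value were the catalytic subunits, Psme1, Psme2 and the 5 members with the smallest p on each side of 0, and from each list up to 3 genes with the smallest p; other genes were named after their values were seen, as was the count of members above 0. A list gene is represented by its brightest probe set. Probe sets may also detect processed pseudogenes, which RefSeq lists for Psma5, Psmb5, Psmb6 and Psmb7. Arrays have no read depth, and their number limits the precision.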

Additional observations from a re-analysis of the deposited data

How the results depend on the processing

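No choice tried brought a member past an adjusted p of 0.05. The counts at an unadjusted p of 0.05, 1 higher and 1 lower, were small and moved easily. The higher count was 0 with a further quantile normalization, 2 with arrays centred on their medians (Psmd5 and Psmb8), 0 without both arrays numbered 2, 3 with the methods' ANOVA, 0 at 1.3-fold as well, and 0 to 1 when single arrays were left out, the 1 being Psmb8 in place of Psmd5. The lower count was 0 with dim probe sets left out, 2 with array weights, 0 without both arrays numbered 2, 0 at 1.3-fold as well, and 1 to 2 with single arrays left out. Psmb11 was called without each single array, and Psma8 joined it without VAChT KDHOM array 3. Centring raised the median of the members to 0.12 and that of the non-ATPase subunits to 0.12, put 48 of 51 above 0 and turned the share called over all probe sets from 3.93% higher and 7.81% lower to 6.72% and 3.66%. It also turned Psmb3 to 0.0011, Psmb5 to 0.021, Psme1 to 0.057, Psmb9 to 0.047, Psmb7 to 0.051 and Trim54 to 0.018. Array weights turned Psme1 to 0.0060 and Psmb9 to 0.017. Quantile normalization moved Psmb11, the thymoproteasome subunit, to -0.17 and the median of the members to 0.01. Without both arrays numbered 2 the medians were 0.13 for the ATPases, 0.22 for the chaperones and 0.081 for the activators. With single arrays left out Psmb3 ranged from -0.15 to 0.015, Psmb5 from -0.10 to 0.031, Psmb6 from -0.0093 to 0.12, Psme1 from -0.034 to 0.031, Psmb9 from -0.076 to 0.062 and Psmb7 from -0.057 to 0.051. The cause of these shifts was not tested. With the replicate number as a block the higher count was 0 and the lower count 1. Arrays of the same number correlated at 0.06, -0.12 and 0.13 in their deviations from the group means, so the numbers were not taken to pair the arrays. Pools of RNA and 3 arrays per group limit what could be detected.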
